A study of Mus musculus with 4 samples.

Results

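The phagocyte NADPH oxidase and its accompanying proton channel were examined in dendritic cells (DCs) of the mouse spleen. The set holds 7 genes: Cybb, Cyba, Ncf1, Ncf4, Rac1, Rac2 and Hvcn1. Its members were taken as every probe set (a group of short probes that reads 1 transcript region) whose single gene symbol in the platform annotation is one of these. This gave 14 of the 45037 gene probe sets on the array. CD8α+ DCs were compared with CD8α− DCs, both from the spleen of C57BL/6 mice, with 2 Affymetrix Mouse Genome 430 2.0 arrays per population and 4 in all. No treatment, genotype change, age or number of animals is given in the sources used here, nor how the cells were sorted. They do not state that the arrays of a population came from separate animals, and p-values therefore cover no more than the scatter among these arrays, which could be technical. The sources also describe the RNA preparation in 2 different ways, with RNeasy, Oligotex and labelled cDNA in the design text and Trizol and labelled cRNA in the labels.

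The oxidase moves electrons from NADPH across a membrane to oxygen, which makes superoxide. Its catalytic core, NOX2, is encoded by Cybb and sits in the membrane with the small subunit encoded by Cyba. On activation, the cytosolic subunits encoded by Ncf1 and Ncf4 move to that membrane together with a Rac GTPase, Rac1 or Rac2. Hvcn1 encodes a voltage-gated proton channel that carries protons across the same membrane and balances the charge moved by the electrons. In DCs the oxidase is known for consuming protons in phagosomes, which slows acidification and the breakdown of antigen. Splenic CD8α+ DCs are conventional type 1 DCs (cDC1), which excel at cross-presentation to CD8 T cells, and most CD8α− DCs are of type 2 (cDC2).

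The stretches upstream of 3 of the 7 genes are shown because Cybb had the largest difference of the set and these are the members held by the RefSeq promoter table of build GRCm38.p6. Each runs over the 200 bases just before the annotated start, 5′ to 3′ on the strand of the gene, which is the minus strand in each case. The Cybb start is the one in the promoter table and not the outermost annotated one, since the RefSeq span of the gene reaches upstream to base 9487766 of chromosome X. The Cybb stretch lies at chrX:9469325-9469524, Cyba at chr8:122432941-122433140 and Ncf1 at chr5:134229626-134229825. Capitals mark each match to a pair of GAAA half-sites with any 2 bases between them, on either strand, the core of an interferon response element.
Cybb: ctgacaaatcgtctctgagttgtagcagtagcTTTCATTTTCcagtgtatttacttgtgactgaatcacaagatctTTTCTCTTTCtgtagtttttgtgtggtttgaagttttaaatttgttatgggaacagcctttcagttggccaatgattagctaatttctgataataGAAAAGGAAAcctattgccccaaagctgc
Cyba: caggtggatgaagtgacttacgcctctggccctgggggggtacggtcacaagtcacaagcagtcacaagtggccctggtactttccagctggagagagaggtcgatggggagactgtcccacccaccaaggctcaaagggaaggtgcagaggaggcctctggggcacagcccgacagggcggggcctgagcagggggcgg
Ncf1: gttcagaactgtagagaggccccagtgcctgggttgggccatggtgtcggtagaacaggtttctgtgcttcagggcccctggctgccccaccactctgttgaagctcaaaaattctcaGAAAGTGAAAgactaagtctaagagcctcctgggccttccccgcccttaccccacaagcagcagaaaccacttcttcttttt

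In windows of 250 bases before to 50 bases after the start, 3.44% of 32851 RefSeq promoters held such a pair. The Cybb window held it at -168 to -159 and at -124 to -115 on the opposite strand, and at -29 to -20 on the strand of the gene. The Ncf1 window held it at -82 to -73, and the Cyba window had no match. The letters GAGGAA, bound by the factor PU.1, were searched on both strands as well and stood in 28.3% of promoters. Among the 3 genes they were found only in the window of Cybb, at 10 to 15 bases after the start on the opposite strand. These matches describe letters and do not show that a factor binds there.

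The arrays differed in quality. The deposited signals had medians of 26.6 and 22.9 on CD8α+ replicates 1 and 2 and of 35.1 and 17.4 on CD8α− replicates 1 and 2, and were quantile normalized before any comparison. Values below are normalized signals unless called deposited, and differences are log2 signal in CD8α+ DCs minus CD8α− DCs, ± the standard error of the limma fit. Across tested probe sets the CD8α+ pair correlated at r = 0.957 and the CD8α− pair at r = 0.836. The Gapdh control read 10.8 times more signal at its 3′ than at its 5′ end on CD8α− replicate 2, and from 1.53 to 2.02 times more on the other 3 arrays. The Actb control went the other way, with a 3′ to 5′ ratio of 0.759 on CD8α− replicate 2 and of 1.62 to 1.69 on the other 3. Cd8a, which defines the populations, was higher on both CD8α+ arrays than on both CD8α− arrays on each of its 5 probe sets, and its brightest probe set read 2139 and 2468 in CD8α+ DCs against 15.8 and 27.9 in CD8α− DCs. At an unadjusted p under 0.05, 8 of 9 tested cDC1 markers were higher and 4 of 6 tested cDC2 markers lower in CD8α+ DCs. These include Cd8a itself and Clec10a, whose mean signals passed the filter on dim signals in 1 population alone. Without them the counts were 7 of 8 and 3 of 5, against 7.18% and 8.84% of all tested genes higher and lower.

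No member passed the threshold over the whole array, and the differences lay mostly on the side of lower signal in CD8α+ DCs. With limma, 0 of 14 member probe sets had a Benjamini-Hochberg adjusted p under 0.05, as did 0% of all 22519 tested probe sets, where the lowest adjusted p was 0.113. At an unadjusted p under 0.05, 6 of the 14 were lower and 0 higher in CD8α+ DCs, against 7.83% of all tested probe sets in each direction. These 6 read Cybb (3 probe sets), Rac2 (2) and Hvcn1 (1), so they are not independent of each other. Both CD8α+ arrays lay below both CD8α− arrays on 9 member probe sets and above them on 2, against 26.2% and 26.1% of all tested probe sets. The median member difference was -0.83, against 0.01 over all tested probe sets. All 14 passed the filter on dim signals, a mean of at least 23.7, but Rac1 1437674_at did so through its CD8α− signals, since its mean was 13.0 in CD8α+ DCs. Of the other 13, 6 were lower at an unadjusted p under 0.05, 8 lay below without overlap, and the median was -0.74.

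The counts depended on which array was left out, and so did the background. Without CD8α+ replicate 1, 0 member probe sets were higher and 3 lower at an unadjusted p under 0.05, against 2.12% and 2.93% of all tested probe sets. Without CD8α+ replicate 2 they were again 0 and 3, against 2.18% and 3.74%. Leaving out CD8α− replicate 1 gave 3 higher and 7 lower, against 23.9% and 19.4% of all tested probe sets. Leaving out CD8α− replicate 2 gave 0 and 5, against 17% and 11.4%. Adjusted calls numbered 5 when CD8α− replicate 1 was left out, a fit whose error comes from the close CD8α+ pair alone and which called 12.9% of all tested probe sets. With an intensity trend in the spread 1 was called, a Cybb probe set, against 0.266% of all tested probe sets.

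**Figure D1:**
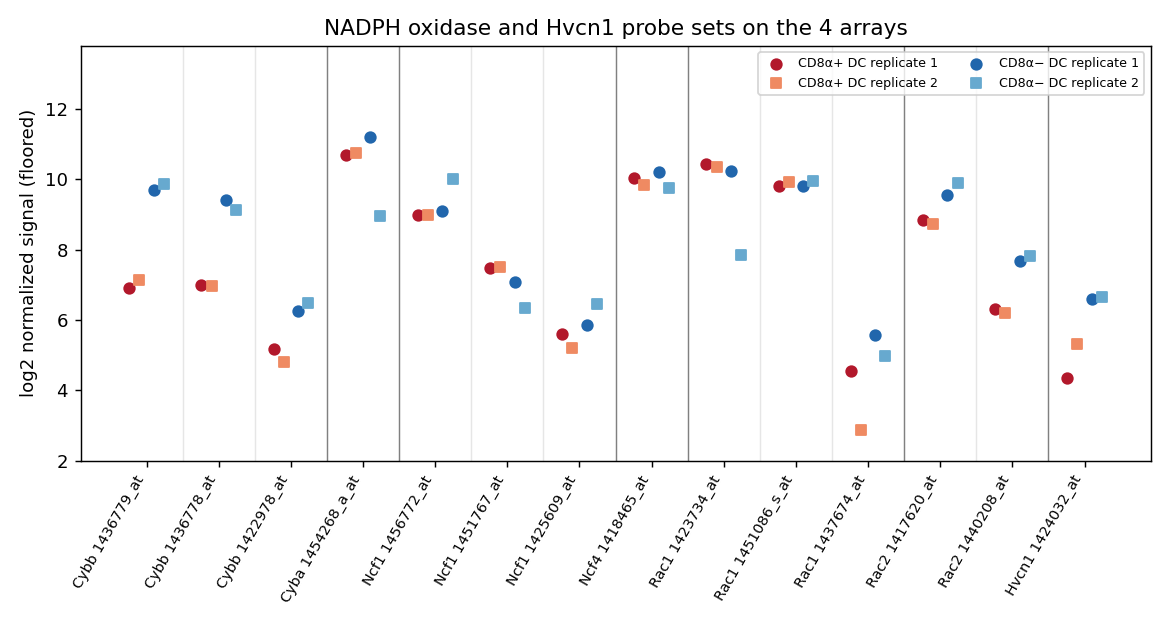
Log2 normalized signal (vertical axis) of the 14 member probe sets (horizontal axis, grouped by gene) on each array, with red and orange for CD8α+ DCs and the blues for CD8α− DCs. The Cybb, Rac2 and Hvcn1 probe sets show CD8α+ points below CD8α− points, while Cyba 1454268_a_at and Rac1 1423734_at show CD8α− replicate 2 far below the other 3 arrays.

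Cybb, the catalytic subunit, was lower in CD8α+ DCs on all 3 of its probe sets. Probe set 1436779_at read 120 and 141 in CD8α+ DCs, against 824 and 939 in CD8α− DCs. The deposited signals of that probe set were 144.9 and 181.3 in CD8α+ DCs and 810.4 and 413.5 in CD8α− DCs. The populations did not overlap on either scale, and every CD8α− array was above every CD8α+ array. The difference was -2.76 ± 0.32 (limma, 95% interval -3.62 to -1.90, adjusted p = 0.113), a 6.77-fold lower signal in CD8α+ DCs with n = 2 arrays each. Whether fewer cells with Cybb RNA or less of it per cell underlies this cannot be told apart in RNA from whole populations.

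Probe set 1436778_at, designed from the same cDNA entry, read 128 and 124 in CD8α+ DCs against 678 and 563 in CD8α− DCs. Its difference was -2.30 ± 0.32 (limma adjusted p = 0.119). The dimmer 1422978_at read 36.1 and 27.8 in CD8α+ DCs against 77.1 and 90.2 in CD8α− DCs, with a difference of -1.40 ± 0.34 (limma adjusted p = 0.207). The 3 probe sets thus had the same order of populations and folds of 6.77, 4.91 and 2.63. The arrays of a population lay close together on each: those of the CD8α− pair differed by 1.14 to 1.21-fold, against a median of 1.61-fold over all tested probe sets. For 1436779_at the difference was -2.78 between the replicate 1 arrays and -2.74 between the replicate 2 arrays, which the labels do not state to be pairs. Over all alternatives the difference of this probe set stayed between -2.87 and -1.83. Its limma adjusted p was 0.0480 with an intensity trend and 0.0432 with CD8α− replicate 1 left out, as it was for 1436778_at in that fit.

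Marker genes of other cells were read on the same arrays, and 0 of them passed adjustment. Neutrophils, monocytes and macrophages are known for high Cybb, and B cells express it too. Of 10 neutrophil markers on the array 9 were tested, and 0 were higher and 5 lower in CD8α+ DCs at an unadjusted p under 0.05. The shares over all tested genes are the 7.18% and 8.84% given above. Sums of signals here and below cover all listed genes on the array, tested or not. The neutrophil sums were 7473 and 8111 in CD8α+ DCs against 15161 and 12497 in CD8α− DCs. Much of this was S100a8 (2621 and 2997 against 5629 and 4596) and S100a9 (3947 and 4160 against 7032 and 4644). Neither was among the 5 lower genes (limma unadjusted p = 0.0524 and 0.24). The neutrophil elastase gene Elane was not above background on any array. Monocyte markers (6 tested, 0 higher, 2 lower) summed to 3306 and 3374 in CD8α+ DCs against 6271 and 8861 in CD8α− DCs. Of those 2, Cx3cr1 passed the filter through its CD8α− signals alone, which leaves 1 of 5. Of 10 macrophage markers 6 were tested, 1 higher and 3 lower, with sums of 1093 and 1238 in CD8α+ DCs against 1532 and 2110 in CD8α− DCs, and C1qc was not above background on any array. C1qb passed the filter through its CD8α− signals alone, which leaves 1 higher and 2 lower of 5.

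At the same level, B cell markers (4 of 8 tested, 1 higher, 1 lower) summed to 328 and 329 in CD8α+ DCs and to 439 and 489 in CD8α− DCs, and Pax5 and Fcer2a were not above background on any array. The natural killer (NK) cell markers, 7 tested, were higher in 0 and lower in 4, with sums of 407 and 591 in CD8α+ DCs against 2530 and 1480 in CD8α− DCs. Ncr1 passed the filter through its CD8α− signals alone, which leaves 0 higher and 4 lower of 6. T cell markers (6 tested, 0 higher, 0 lower) summed to 554 and 744 in CD8α+ DCs against 542 and 591 in CD8α− DCs, and Lat was not above background on any array. The markers of plasmacytoid DCs (5 tested, 0 higher, 1 lower) gave 1064 and 1172 in CD8α+ DCs against 1619 and 2393 in CD8α− DCs. Much of this was Tcf4, the 1 lower gene, with 709 and 829 in CD8α+ DCs against 1291 and 1926 in CD8α− DCs. Ccr9 lay the other way, at 110 and 101 in CD8α+ DCs against 69.0 and 4.25 in CD8α− DCs. Bst2 and Klk1 were on the side of Tcf4, and the populations overlapped on Siglech. Of the 5 tested markers, Siglech passed the filter through its CD8α+ signals alone and Klk1 through its CD8α− signals alone. Without them 0 were higher and 1 lower of 3. Erythroid genes (1 tested, 0 higher, 0 lower) gave 146 and 110 in CD8α+ DCs against 124 and 150 in CD8α− DCs, and Hba-a1, Alas2, Klf1 and Epb42 were not above background on any array. The part of such cells in the Cybb difference was not tested.

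Cyba encodes the membrane partner that NOX2 needs for stability. Its probe set 1454268_a_at read 1667 and 1727 in CD8α+ DCs, against 2349 and 494 in CD8α− DCs. The CD8α+ arrays lay between the CD8α− arrays, so the populations overlapped. The fitted difference was 0.66 ± 0.81 (limma, 95% interval -1.50 to 2.81, adjusted p = 0.707). The CD8α− arrays differed 4.76-fold from each other, a larger gap than on 93.4% of tested probe sets, while the CD8α+ pair differed by 0.05 on the log2 scale. The difference was therefore set by which CD8α− array was used: leaving out CD8α− replicate 2 gave -0.47. Leaving out CD8α− replicate 1 gave 1.78, with an adjusted p of 0.0449 in limma. CD8α− replicate 2 is the array with the highest Gapdh and the lowest Actb 3′ to 5′ ratio, and the part of RNA quality in the Cyba value was not tested.

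Ncf1 encodes the subunit that organizes the active complex, and its 3 probe sets differed in direction. The brightest, 1456772_at, read 509 and 511 in CD8α+ DCs against 549 and 1040 in CD8α− DCs, with a difference of -0.57 ± 0.43 (limma adjusted p = 0.548) that turned to 0.42 on the deposited scale. Probe set 1451767_at read 179 and 182 in CD8α+ DCs against 135 and 80.4 in CD8α− DCs, a difference of 0.79 ± 0.39 (limma adjusted p = 0.401). Probe set 1425609_at read 48.9 and 36.9 in CD8α+ DCs against 57.9 and 87.4 in CD8α− DCs, a difference of -0.74 ± 0.39 (limma adjusted p = 0.418).

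On each of the 3 the populations did not overlap, but 1 put CD8α+ DCs above and 2 put them below. Of all tested probe sets, 26.1% lay above and 26.2% below in this way. The last 2 probe sets were designed from the same cDNA entry and still gave opposite signs. On all 3 the CD8α− replicate 1 signal was nearer to the CD8α+ arrays than CD8α− replicate 2 was. No direction can be given for Ncf1 from these arrays.

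Ncf4, whose product binds a phosphoinositide of the phagosome membrane, read 1044 and 919 in CD8α+ DCs against 1194 and 860 in CD8α− DCs. The CD8α+ arrays lay inside the range of the CD8α− arrays. The difference was -0.05 ± 0.35 (limma, 95% interval -0.98 to 0.88, adjusted p = 0.953), so differences of nearly 1 log2 unit in either direction lie within the interval. On the deposited scale it was 0.92, where the median of all tested probe sets stood at 0.63.

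Rac1, the widely expressed Rac GTPase, was read by 3 probe sets that gave different results. Probe set 1451086_s_at read 903 and 970 in CD8α+ DCs against 897 and 983 in CD8α− DCs. The CD8α+ arrays lay within the range of the CD8α− arrays, and the difference was -0.01 ± 0.31 (limma, 95% interval -0.84 to 0.82, adjusted p = 0.995). Probe set 1423734_at, designed from the same cDNA entry, read 1385 and 1320 in CD8α+ DCs against 1217 and 231 in CD8α− DCs. Its difference of 1.35 ± 0.86 (limma adjusted p = 0.482) came to 0.15 when CD8α− replicate 2 was left out. It came to 2.55, with a limma adjusted p of 0.0432, when CD8α− replicate 1 was left out. The CD8α− arrays differed 5.28-fold on it and 1.10-fold on 1451086_s_at.

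The dim Rac1 probe set 1437674_at read 23.4 and 2.70 in CD8α+ DCs against 47.6 and 31.3 in CD8α− DCs. It was not well above background on the CD8α+ arrays and on 1 of the 2 CD8α− arrays. Background was set by the brightest Bacillus control on an array. With the CD8α+ signals raised to background, the CD8α− signals were 1.44-fold brighter. Since 1 CD8α− signal was itself under background, this is no lower bound. In limma the adjusted p was 0.358. On the replicate 2 array of CD8α+ DCs the signal was raised to the floor of 7.28.

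Rac2, the Rac GTPase of blood cells, was lower in CD8α+ DCs on both probe sets. Probe set 1417620_at read 459 and 429 in CD8α+ DCs against 747 and 951 in CD8α− DCs, and 1440208_at read 78.9 and 73.8 in CD8α+ DCs against 204 and 226 in CD8α− DCs. All CD8α+ arrays lay below all CD8α− arrays on both. The differences were -0.93 ± 0.33 (limma adjusted p = 0.301, unadjusted p = 0.0425) and -1.49 ± 0.31 (limma adjusted p = 0.177, unadjusted p = 0.00656), or 1.90-fold and 2.81-fold lower. The 1417620_at value turned to 0.06 on the deposited scale and with arrays centred on the median, where all tested probe sets had shifted by 0.63 and 0.65. Measured from that shift, 1417620_at stayed between -1.04 and -0.54 and 1440208_at between -1.58 and -1.26 over all alternatives. With CD8α− replicate 1 left out, the limma adjusted p of 1440208_at was 0.0480.

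Hvcn1, the proton channel, was read by 1 probe set, 1424032_at, which gave 20.4 and 39.9 in CD8α+ DCs against 97.5 and 100 in CD8α− DCs. Both CD8α+ arrays were lower than both CD8α− arrays, and CD8α+ replicate 1 was not above background. The difference was -1.79 ± 0.44 (limma, 95% interval -2.97 to -0.61, adjusted p = 0.211, unadjusted p = 0.0124), a 3.46-fold lower signal. Here the CD8α+ arrays were the pair that spread, by 0.97 on the log2 scale, against 0.04 between the CD8α− arrays. Leaving out CD8α+ replicate 1 gave -1.31, and leaving out replicate 2 of that population gave -2.27. B cells are known to express Hvcn1 strongly, and their marker sums are given above with Cybb.

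**Figure D2:**
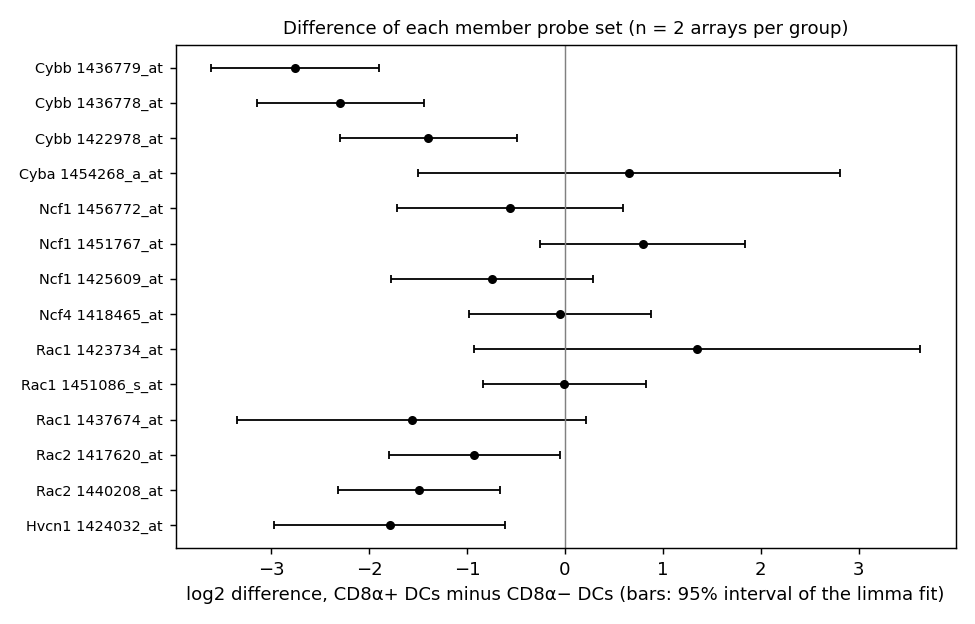
Difference of each member probe set in log2 signal, CD8α+ DCs minus CD8α− DCs, with the 95% interval of the limma fit and n = 2 arrays per population. The intervals of the 3 Cybb, 2 Rac2 and 1 Hvcn1 probe sets lie below 0, and those of the other 8 include it. None passes adjustment over all tested probe sets.

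The sign of several members depended on how the arrays were scaled. The median of all tested probe sets was 0.01 after quantile normalization, 0.63 on the deposited scale, -0.21 with arrays scaled to a common trimmed mean and 0.65 with arrays centred on the median. At an unadjusted p under 0.05 the higher and lower probe sets numbered 1763 and 1763, 2310 and 454, 1278 and 3784, and 6018 and 855 in the same order. The Cybb, Ncf1 1425609_at, Rac1 1437674_at, Rac2 1440208_at and Hvcn1 differences were negative under every alternative that tested them, and those of Ncf1 1451767_at and Rac1 1423734_at positive. Cyba, Ncf1 1456772_at, Ncf4, Rac1 1451086_s_at and Rac2 1417620_at had both signs.

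**Figure D3:**
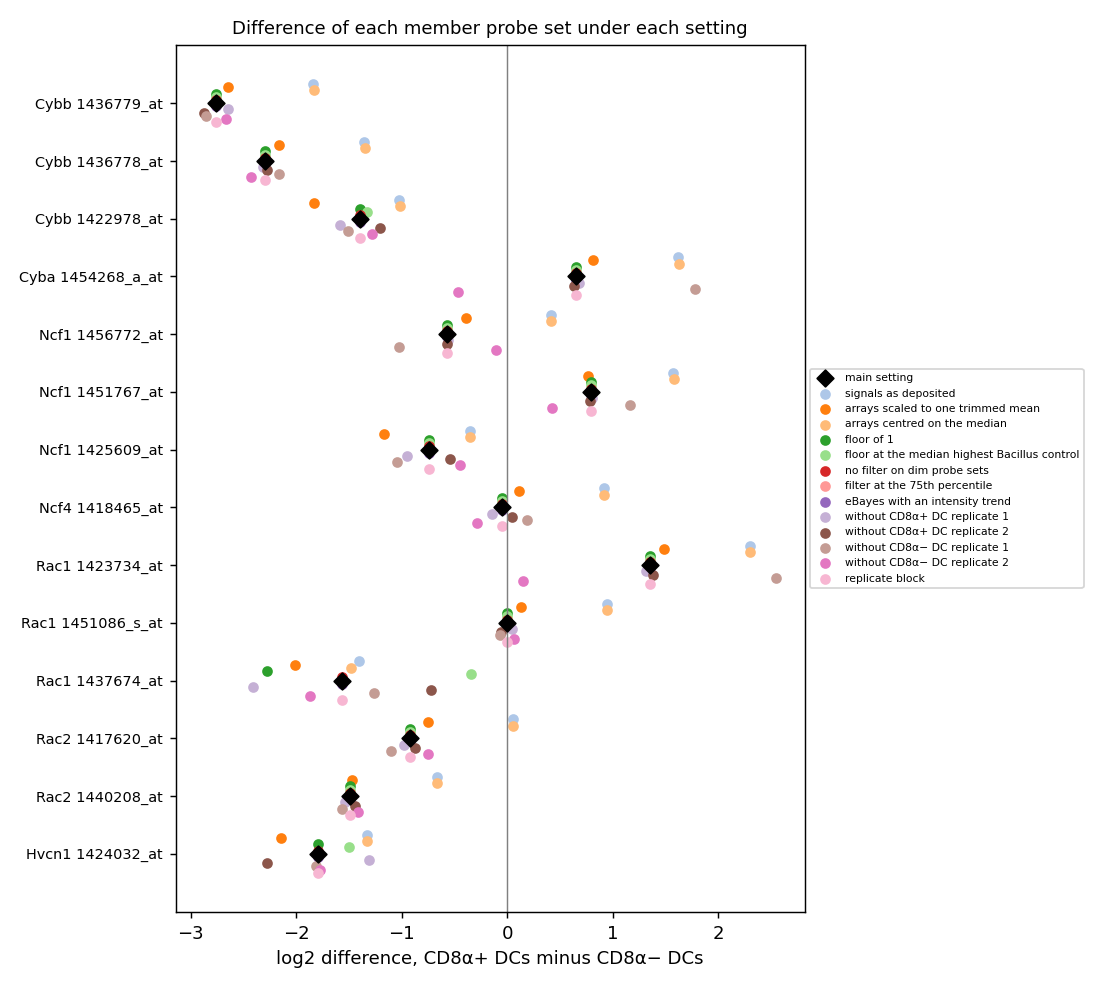
Difference of each member probe set (log2, CD8α+ DCs minus CD8α− DCs) in the main setting (black diamonds) and under each of 13 alternatives (coloured points, spread vertically for legibility). Cybb 1436779_at stays between -2.87 and -1.83, while Cyba runs from -0.47 to 1.78 and Rac1 1423734_at from 0.15 to 2.55.

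The genes that load, activate, deliver or restrain the oxidase were read from a list of 27. It includes Arhgdib and Nrros, which act against the oxidase, so its counts and median do not measure oxidase activity. Of the 27 genes, 22 were tested. At an unadjusted p under 0.05, 2 were higher and 7 lower in CD8α+ DCs and 13 were neither, against 7.18% and 8.84% of all 10531 tested genes. Their median difference was -0.40, against -0.02 over all tested genes, and 0 passed adjustment. The counts were 2 higher and 0 lower on the deposited scale, against 10.4% and 2.49% of all tested genes, and 3 and 1 with arrays centred on the median, against 28.2% and 4.35%. Leaving out replicate 1 of CD8α+ DCs gave 0 and 0, against 2.06% and 3.32%, and leaving out replicate 2 gave 0 and 1, against 1.95% and 4.32%. Leaving out replicate 1 of CD8α− DCs gave 5 and 8, against 22.7% and 21.5%, and leaving out replicate 2 gave 3 and 10, against 15.9% and 12.4%. Without CD8α− replicate 1, where 12.9% of all tested probe sets were called, Vav3, Rap1a, Rab27a and Nrros passed adjustment in limma. These alternative counts also include Cybc1 of the other list.

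Exchange factors that load Rac with GTP stood on both sides. Vav3 read 742 and 768 in CD8α+ DCs against 294 and 171 in CD8α− DCs, a difference of 1.75 ± 0.40 (limma adjusted p = 0.194). Tiam1 read 712 and 804 in CD8α+ DCs against 180 and 371 in CD8α− DCs, a difference of 1.55 ± 0.47 (limma adjusted p = 0.258). Prex1 was on the opposite side, with 742 and 851 in CD8α+ DCs against 1417 and 1700 in CD8α− DCs and a difference of -0.97 ± 0.33 (limma adjusted p = 0.286). Each of these factors had populations that did not overlap, as did 26.1% (higher) and 26.2% (lower) of all tested probe sets. They were named for a small p, which favours such separation. Arhgdib, which holds Rac in the cytosol, read 534 and 519 in CD8α+ DCs against 933 and 1221 in CD8α− DCs, with a difference of -1.02 ± 0.33 (limma adjusted p = 0.279). On the deposited scale, where the median of all was 0.63, the differences of Prex1 and Arhgdib both came to -0.07, that of Vav3 to 2.69 and that of Tiam1 to 2.54.

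Rab27a, a GTPase known for bringing NOX2-bearing vesicles to DC phagosomes, read 52.1 and 62.0 in CD8α+ DCs against 191 and 215 in CD8α− DCs. This was probe set 1429123_at, whose difference of -1.83 ± 0.32 had the smallest p of the list (limma adjusted p = 0.146). The dimmer Rab27a probe set 1454438_at lay on the other side. It read 32.8 and 30.3 in CD8α+ DCs against 18.4 and 21.7 in CD8α− DCs, with no overlap. Its difference was 0.66 ± 0.32 (limma adjusted p = 0.395), and it passed the filter through its CD8α+ signals. Pla2g4a, the cytosolic phospholipase that releases arachidonate, read 20.5 and 30.8 in CD8α+ DCs against 57.0 and 55.7 in CD8α− DCs (-1.16 ± 0.36, limma adjusted p = 0.268). The populations did not overlap for either gene, but 1 CD8α+ array of Pla2g4a was not above background. Prkcb, a kinase that phosphorylates the Ncf1 product, read 1501 and 1650 in CD8α+ DCs against 2566 and 3643 in CD8α− DCs on 1423478_at (-0.96 ± 0.35, limma adjusted p = 0.313). Its other tested probe sets had smaller differences, -0.45 on 1460419_a_at and -0.22 on 1443144_at (limma unadjusted p = 0.337 and 0.632). The populations overlapped on 1443144_at, which was not above background on any array. On the deposited scale Rab27a 1429123_at came to -1.09, Pla2g4a to -0.93 and Prkcb 1423478_at to -0.19.

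Among the brightest genes of the list, several had no unadjusted p under 0.05. The kinase gene Mapk14 was at 0.50 ± 0.31, Rap1b at -0.18 ± 0.32 and the integrin chain gene Itgb2 at -0.43 ± 0.31. Their limma adjusted p were 0.478, 0.803 and 0.522, each on the brightest tested probe set. Other tested probe sets of Mapk14 went both ways: 1416704_at at 2.38, 1442364_at at 1.485 and 1459617_at at -1.12. For 1416704_at and 1459617_at the limma unadjusted p was 0.00413 and 0.0216. Both 1416704_at and 1442364_at passed the filter through their CD8α+ signals, with CD8α− means of 9.54 and 16.15. On the deposited scale Rap1b came to 0.20 and Itgb2 to 0.45. Rap1a read 905 and 873 in CD8α+ DCs against 1722 and 162 in CD8α− DCs, and its difference of 0.75 ± 1.18 (limma adjusted p = 0.771) was -0.95 when CD8α− replicate 2 was left out and 2.45 when CD8α− replicate 1 was. Like Cyba and Rac1 1423734_at, it was far lower on CD8α− replicate 2 than on the other 3 arrays.

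**Figure D4:**
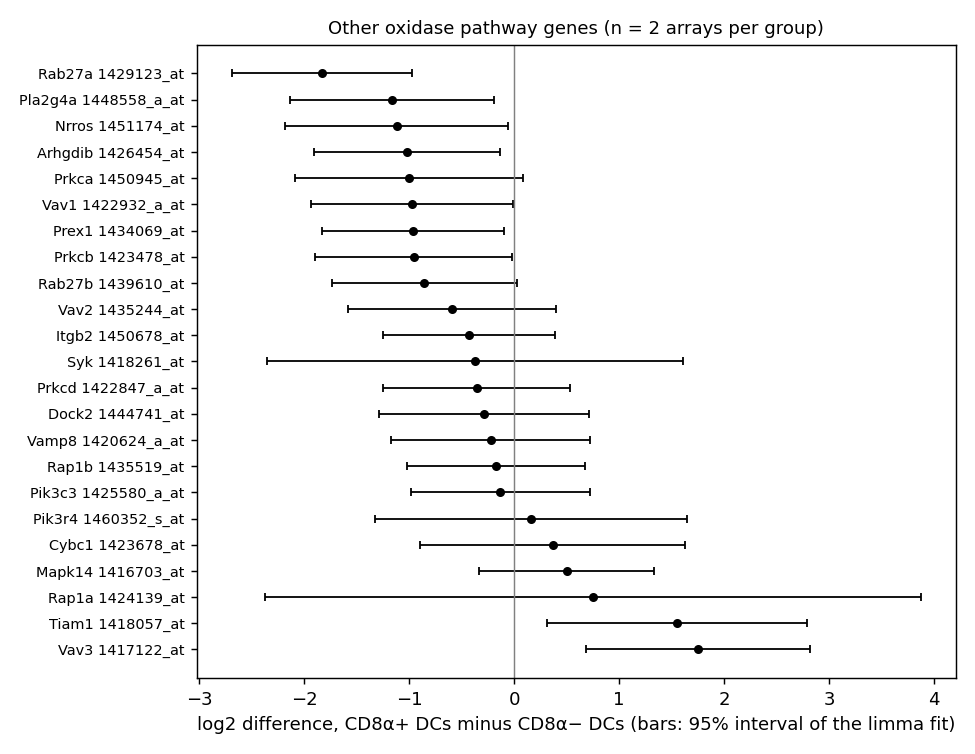
Difference in log2 signal, CD8α+ DCs minus CD8α− DCs, of the 23 tested genes from the 2 lists of other oxidase genes, ordered by value, with the 95% interval of the limma fit (n = 2 arrays per population). Vav3 and Tiam1 lie above 0 with their intervals, Rab27a, Pla2g4a, Nrros, Arhgdib, Vav1, Prex1 and Prkcb lie below it with theirs, and Rap1a has the widest interval.

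Other members of the oxidase family were mostly dim. Of the 11 genes of that list, 6 were read by a probe set with 1 symbol, and Nox4, Noxo1, Duox1 and Duoxa2 were not above background on any array. Cybc1, a chaperone needed for the NOX2 protein, was the gene tested, with 142 and 150 in CD8α+ DCs against 165 and 77.9 in CD8α− DCs. The CD8α+ arrays lay between the CD8α− arrays, and the difference was 0.37 ± 0.47 (limma adjusted p = 0.720).

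The genes with a pattern most like that of Cybb were ranked by the distance between log2 signals on the 4 arrays, each centred on its mean, among 10530 other tested genes. The nearest 5 were Chrnb2 (distance 0.172), Lgals12 (0.185), Fcer1g (0.191), Acp5 (0.196) and Cmtr2 (0.202), against a median distance of 2.83. Fcer1g, the Fc receptor signalling chain, read 356 and 423 in CD8α+ DCs against 2481 and 3274 in CD8α− DCs, and its difference was -2.88 ± 0.34 (limma adjusted p = 0.113). Acp5, an acid phosphatase, had a difference of -2.77 ± 0.36 (limma adjusted p = 0.113). Chrnb2, Lgals12 and Cmtr2 were at the floor on both CD8α+ arrays, so their nearness rests on the CD8α− arrays and on the level of the floor. With 4 arrays this ranking describes the arrays only. It used the same signals, so differences and p close to those of Cybb follow from the choice of genes.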

How the data were processed

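RNA of CD8α+ and CD8α− spleen DCs was measured on 4 arrays, 2 per group by the labels' titles. The authors deposited linear intensity values, 1 MAS5 signal per probe set. The submitters' processing notes name MAS5 but no scaling target. Of 45101 probe sets, 64 controls were left out of tests. Of the others, 34945 had 1 symbol, 932 several and 9160 none, and only the first were named. The deposited values were not on a common scale, so arrays were quantile normalized over all probe sets, raised to a floor of 7.28 (the arrays' average 25th percentile), and log2 was taken. Probe sets with a mean signal at or above the median, 23.7, were tested (22519, of 10531 genes).

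The populations were compared with limma 3.58.1 under R 4.3.3, using lmFit and a two-sided eBayes test with no intensity trend and Benjamini-Hochberg adjustment over all tested probe sets (threshold 0.05), with 2 residual and 2.51 prior degrees of freedom. It was tested on simulated data. An exact permutation test of 2 against 2 arrays cannot give a p below 0.333 and was not used. For tests, a listed gene was read from its brightest tested probe set, preferring any whose name lacks the _x_at ending. For the marker sums the same choice was made among all its probe sets, tested or not. C1qb and Klk1 were therefore summed from other probe sets than those tested, and the summed Klk1 probe set was above background on no array. Background was the highest of 27 Bacillus controls of each array, 31.8, 22.6, 29.2 and 35.6 after normalization (CD8α+ arrays first, each in replicate order). The members and gene lists were chosen with earlier results of these data known. Named were all members, the list genes with the smallest p (up to 4 per direction) or highest signal (3 per direction), and the 5 genes most like Cybb. Alternatives changed the normalization, floor, filter, spread model, arrays and a replicate block. Python 3.11.15 and matplotlib 3.10.9 drew the figures. The number of arrays limits the precision.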

Additional observations from a re-analysis of the deposited data

How the results depend on the processing

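Probe sets called over the whole array numbered 0 in the main setting, 406 with arrays centred on the median, 34 with the filter at the 75th percentile, 60 with an intensity trend, 27 with a replicate block and from 0 to 2900 with 1 array left out. Member probe sets called numbered 0, then 1 with an intensity trend and from 0 to 5 with 1 array left out. Member probe sets at an unadjusted p under 0.05 numbered 6, then 1 on the deposited scale and from 3 to 10 with 1 array left out. Of all tested probe sets, 15.7% stood at that level in the main setting and 12.3% on the deposited scale. The 1 member probe set on the deposited scale was lower, where 2310 of all tested probe sets were higher and 454 lower. The replicate block gave 0 member probe sets called and 6 at that level, against 16.3% of all tested probe sets (1989 higher, 1691 lower). Among the pathway genes the block gave 2 higher and 1 lower, against 2 and 7 without it. The labels do not state that replicate numbers pair the arrays. The replicate 1 minus 2 differences of the populations correlated at 0.03 over 22519 probe sets. No shared replicate effect was thus seen, which cannot settle whether the arrays were paired.

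Signs turned as follows. On the deposited scale Ncf1 1456772_at was 0.42, Ncf4 0.92, Rac1 1451086_s_at 0.94 and Rac2 1417620_at 0.058, and with arrays centred on the median they were 0.42, 0.92, 0.95 and 0.0598. With a common trimmed mean Ncf4 was 0.11 and Rac1 1451086_s_at 0.13. With 1 array left out Cyba ran from -0.47 to 1.78, Ncf4 from -0.29 to 0.19 and Rac1 1451086_s_at from -0.0716 to 0.0608. The median of all probe sets was 0.63 on the deposited scale and 0.65 after centring, but -0.21 with a common trimmed mean, against the direction of both turns there. The cause of the turns was not tested. With 1 array left out, a group of 1 is assumed to vary like the other group.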

Other observations

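Further probe sets of the pathway genes are given here and were picked after their values were seen. The 3 probe sets of Vav3 had the same direction, with differences of 1.75, 1.77 and 0.85, and on each both CD8α+ arrays lay above both CD8α− arrays. Vav1, the exchange factor of blood cells, had differences of -0.97 and -1.44 on its 2 probe sets, again with no overlap. The brighter Vav1 probe set read 0.01 on the deposited scale. Of all tested probe sets, 26.1% lay above and 26.2% below in CD8α+ DCs without overlap. Syk, a kinase downstream of Fc receptors and lectins, read 376 and 407 in CD8α+ DCs against 1028 and 251 in CD8α− DCs on 1418261_at, but 212 and 192 in CD8α+ DCs against 510 and 773 in CD8α− DCs on 1418262_at. Nrros, which restrains the oxidase in phagocytes by promoting loss of NOX2, read 364 and 387 in CD8α+ DCs against 626 and 1061 in CD8α− DCs, a difference of -1.12 ± 0.40 (limma adjusted p = 0.302). On the deposited scale Nrros came to -0.15.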
